A study of Mus musculus with 15 samples.

Results

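The genes described here are 10 components of the Notch pathway, the ligand genes *Dll1*, *Dll3*, *Jag1* and *Jag2*, the receptor genes *Notch1*, *Notch2* and *Notch3*, the Fringe gene *Lfng* and the target genes *Hes1* and *Hey1*. They were listed by name as textbook members of the pathway, but with earlier results of these data known, so the choice was not blind to the data. All 10 were found among the 55536 genes counted and passed the filter on low counts, which left 18090 genes. RNA-seq covered 15 samples, 3 each of naive embryonic stem cells (ESCs), epiblast-like cells (EpiLCs) and primordial germ cell-like cells (PGCLCs) on days 2, 4 and 6 of induction. Every group, the ESCs and EpiLCs included, came from mouse ESCs with a *Stella*-eGFP reporter and 4 doxycycline (Dox)-inducible transgenes (4TF), *Prdm1*, *Prdm14*, *Tfap2c* and *Nanog*, which the methods describe as clonal lines. ESCs were kept on laminin in 2i and LIF, EpiLCs were taken after 48 h in Activin A, bFGF and knockout serum replacement, and PGCLCs were aggregates of EpiLCs in GK15 medium with Dox, sorted for eGFP. No group of EpiLCs aggregated without Dox was used here, so aggregation, medium, transgene induction and the sort cannot be told apart in the step to D2PGCLCs. The labels do not say that replicates were separate cultures, so the p-values measure the spread between these samples, which may be technical.

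Notch signalling works between touching cells. A Delta-like or Jagged ligand on a cell binds a Notch receptor on its neighbour, proteases cut the receptor, and the freed intracellular part joins RBPJ in the nucleus to switch on genes such as those of the Hes and Hey repressors. Fringe enzymes add sugars to the receptor and thereby shift which ligands it answers to. The pathway is known for choices between neighbouring cells and for the segmentation of the embryo, and mRNA levels as measured here are not a measure of its signalling.

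Totals were 22555021 to 42725681 counts per library, at which 3 counts are 0.0661 to 0.132 CPM, the counts scaled to library size after TMM normalisation. The D6PGCLC replicate 1 library stood apart, with 18061 genes detected against 21103 to 24343 in the other 14 libraries, and the main D6PGCLC differences are therefore also given without it. The summed CPM of 4 formative markers was 1824 to 1966 in EpiLCs and 40.3 to 142.5 elsewhere, and that of 6 germ cell markers was 820.1 to 1023 in PGCLCs and 121.7 to 233.9 elsewhere. The germ cell list holds *Prdm1* and *Tfap2c*, which are among the transgenes, and *Dppa3* (*Stella*), on whose reporter the cells were sorted. It is therefore not independent of how the PGCLCs were made. *Dppa3* was its highest marker in every group, with means of 451.8, 448.3 and 475.4 CPM on days 2, 4 and 6. *Prdm1* did not follow the sum on day 6, with a mean of 59.6 CPM against 71.6 CPM in EpiLCs. On days 2 and 4 its mean was higher, at 106.1 and 94.5 CPM. The 4 naive markers together reached 1908 to 1972 CPM (ESCs), 213.0 to 242.7 CPM (EpiLCs) and 824.1 to 1106 CPM (PGCLCs). A gene was called with an adjusted p under 0.05 (edgeR's quasi-likelihood test, Benjamini-Hochberg over all 18090 genes) and an absolute log2 fold change of more than 1, and errors of log2 fold changes are standard errors (SE).

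3 promoter stretches are shown because their genes carry the EpiLC pattern described below. *Dll1* and *Notch3* are the ligand and receptor genes with the highest level per length in EpiLCs, and *Lfng* rose in EpiLCs and remained above its ESC level in PGCLCs. They are RefSeq sequences of build GRCm38.p6, written 5′ to 3′ on the gene's strand and cut to the bases outside annotated UTRs. Capitals mark ATGCAAAT, the octamer recognised by POU factors, and TGGGAA, the core recognised by RBPJ, each searched on both strands.
Dll1, chr17:15375977-15376073, minus strand: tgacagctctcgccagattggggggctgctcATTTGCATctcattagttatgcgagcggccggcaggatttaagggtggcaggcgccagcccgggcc
Notch3, chr17:32166891-32167140, minus strand: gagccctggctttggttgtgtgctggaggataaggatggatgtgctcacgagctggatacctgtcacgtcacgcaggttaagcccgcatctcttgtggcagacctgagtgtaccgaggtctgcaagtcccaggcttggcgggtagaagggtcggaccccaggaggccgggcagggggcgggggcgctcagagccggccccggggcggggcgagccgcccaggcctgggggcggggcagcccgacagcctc
Lfng, chr5:140607091-140607319, plus strand: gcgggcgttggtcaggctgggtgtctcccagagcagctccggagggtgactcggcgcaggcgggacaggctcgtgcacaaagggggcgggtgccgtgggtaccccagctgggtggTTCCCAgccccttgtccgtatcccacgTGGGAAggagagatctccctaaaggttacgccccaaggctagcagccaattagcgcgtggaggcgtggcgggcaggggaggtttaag

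RefSeq promoters were found for 8 of the 10 genes, 9 promoters in all. The target genes *Hes1* and *Hey1* had no entry, so their promoters were not searched. Within the 250 bases before the start, the octamer occurred in 1 of these 8 genes, *Dll1*, where its first letter lay 219 bases from the start, and it occurred in 1.60% of all 32851 promoters. *Dll1* has 2 promoters in the table, and the one with the octamer lies within the annotated span of the gene, while the other, at chr17:15376933-15377182 and before that span, held none. Among these 8 genes TGGGAA occurred in *Lfng* only, at 135 and 108 bases from the start and on opposite strands. At least 1 match occurred in 21.6% of all promoters. TAATCC, the core recognised by OTX2, occurred in none of the 8 genes and in 6.25% of all promoters. A match is a description of the letters, and its absence from these windows says nothing about binding of the factor.

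In the plot of CPM by sample, EpiLCs stood highest for *Dll1*, *Dll3* and *Notch3*, whereas *Jag1* and *Hes1* were highest in ESCs and *Hey1* was highest in PGCLCs. Since the libraries are of bulk RNA, fewer cells expressing a gene and less RNA per cell cannot be told apart in any of these values.

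**Figure D1:**
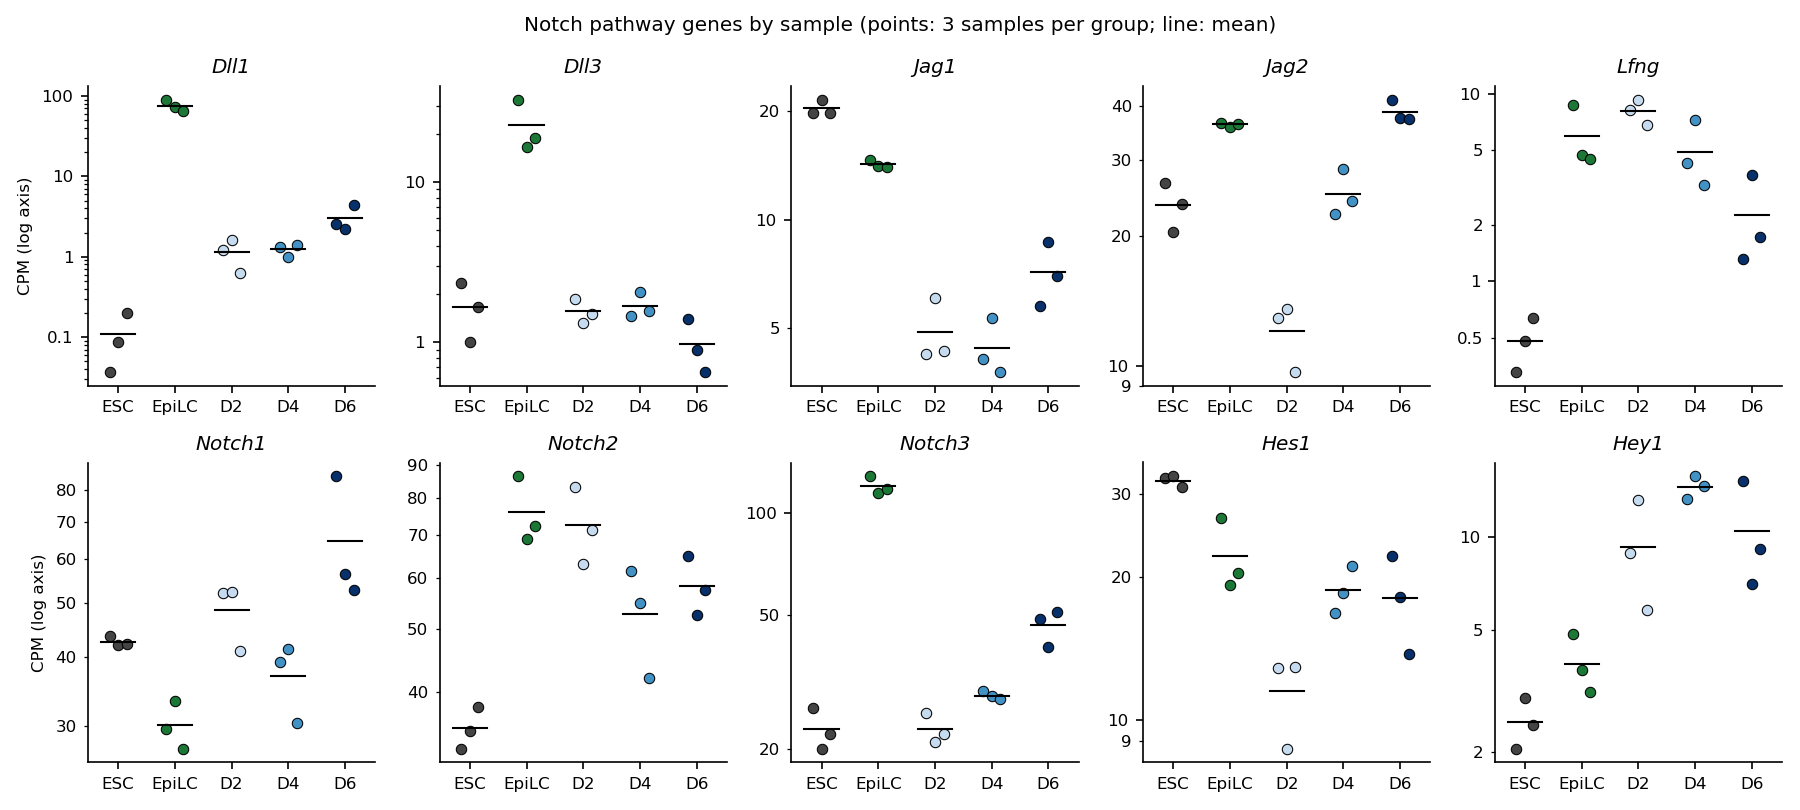
TMM-normalised CPM (log axis, scaled separately in each panel) of the 10 genes, with 1 point per sample, 3 samples per group and a line at the group mean. *Dll1* spans 0.0365 CPM in an ESC sample to 90.0 CPM in an EpiLC sample, while *Notch1* spans only 27.3 to 84.7 CPM.

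*Dll1* (ENSMUSG00000014773, chr17:15367354-15376872, minus strand, mm10) encodes a Delta-like ligand that activates receptors on neighbouring cells. It was almost silent in ESCs, with 1, 2 and 6 counts in the 3 libraries (0.0365, 0.0877 and 0.201 CPM), and reached 90.0, 72.9 and 64.8 CPM in EpiLCs. D2PGCLCs had 1.20, 1.61 and 0.630 CPM, D4PGCLCs 1.30, 0.994 and 1.40 CPM, and D6PGCLCs 2.58, 2.18 and 4.39 CPM. Each EpiLC sample thus exceeded every other sample, each PGCLC sample exceeded every ESC sample, and the D2 and D4 samples overlapped. The rise into EpiLCs was 9.35 ± 0.40 on the log2 scale (adjusted p = 8.05e-13), and the ratio of summed normalised counts was 672.6 (exact 95% interval 354.1 to 1472, which covers counting error only). *Dll1* then fell by 6.07 ± 0.29 in D2PGCLCs (adjusted p = 8.1e-12). It did not return to the ESC level, since the D2PGCLC to ESC ratio of summed normalised counts was 9.95 (5.05 to 22.4) and the D6PGCLC to ESC ratio 26.4 (13.7 to 58.2). *Dll1* rose again from D4 to D6, by 1.29 ± 0.29 on the log2 scale (adjusted p = 0.00751). This last rise was 1.39 without D6PGCLC replicate 1 and 0.93, under the fold cutoff, without D6PGCLC replicate 3. The antisense gene *A930024N18Rik* shares 867 exon bases with *Dll1* and had 0 to 12 counts per library.

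*Dll3* (ENSMUSG00000003436, chr7:28293553-28302238, minus strand) encodes a divergent Delta-like protein that acts within the cell rather than as an activating ligand. It had 2.34, 1.01 and 1.68 CPM in ESCs, 32.6, 16.4 and 18.8 CPM in EpiLCs and 1.87, 1.33 and 1.50 CPM in D2PGCLCs. The EpiLC samples lay above all others, while the ESC and D2PGCLC samples overlapped. *Dll3* rose by 3.74 ± 0.32 on the log2 scale into EpiLCs (adjusted p = 1.48e-08) and fell by 3.85 ± 0.32 afterwards (adjusted p = 1.11e-08). Its mean level was 1.69 ± 0.314 CPM (SD, n = 3) on day 4 and 0.982 ± 0.377 CPM on day 6. In D2PGCLCs it did not differ detectably from ESCs, with a log2 difference of -0.11 ± 0.34 (adjusted p = 0.82). On day 6 it was -0.78 ± 0.34 relative to ESCs (adjusted p = 0.0654), or -1.08 without D6PGCLC replicate 1 (adjusted p = 0.0232) and -1.02 without ESC replicate 2 (adjusted p = 0.0229), which both pass the thresholds.

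*Jag1* (ENSMUSG00000027276, chr2:137081456-137116644, minus strand) and *Jag2* (ENSMUSG00000002799, chr12:112907819-112929776, minus strand) encode the Jagged ligands. *Jag1* had 19.7, 21.5 and 19.7 CPM in ESCs, 14.6, 14.1 and 14.0 CPM in EpiLCs and 4.26, 6.06 and 4.32 CPM in D2PGCLCs. D4PGCLCs had 4.12, 5.33 and 3.78 CPM and D6PGCLCs 5.78, 8.65 and 7.00 CPM. *Jag1* samples thus stepped down without overlap at both boundaries, from ESCs to EpiLCs and from EpiLCs to PGCLCs, and the D2 and D4 samples overlapped. Its difference of -0.51 ± 0.17 between EpiLCs and ESCs had an adjusted p of 0.0161 but stayed under the fold cutoff, and the fall by 1.55 ± 0.18 in D2PGCLCs was called (adjusted p = 7.45e-07). On day 6 it was still 1.50 ± 0.17 below ESCs on the log2 scale (adjusted p = 7.5e-07), with a difference of -1.35 without D6PGCLC replicate 1.

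*Jag2* fell after induction and then rose again. Its levels were 26.5, 20.4 and 23.7 CPM in ESCs, 36.5, 35.7 and 36.3 CPM in EpiLCs and 12.9, 13.5 and 9.66 CPM in D2PGCLCs. They were 22.4, 28.6 and 24.1 CPM in D4PGCLCs and 41.3, 37.4 and 37.3 CPM in D6PGCLCs. The D2PGCLC samples were the lowest of all 15, and the D6PGCLC samples were the highest, just above the EpiLC samples. *Jag2* fell by 1.59 ± 0.13 on the log2 scale from EpiLCs to D2PGCLCs (adjusted p = 9.99e-09) and rose by 1.06 ± 0.13 by day 4 (adjusted p = 7.77e-05). That rise was 0.93 without D2PGCLC replicate 3 and 0.95 without D4PGCLC replicate 2, both under the fold cutoff. From day 2 to day 6 it rose by 1.69 ± 0.13 (adjusted p = 4.28e-08), and by 1.64 without D6PGCLC replicate 1. The D6PGCLC and EpiLC levels did not differ beyond the cutoff, with a log2 difference of 0.0955 ± 0.13 (adjusted p = 0.536).

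*Notch1* (ENSMUSG00000026923, chr2:26457903-26516663, minus strand) encodes a widely used Notch receptor. It had 43.7, 42.0 and 42.3 CPM in ESCs, 29.7, 33.3 and 27.3 CPM in EpiLCs and 52.1, 52.5 and 41.1 CPM in D2PGCLCs. D4PGCLCs had 39.3, 41.3 and 30.4 CPM, and D6PGCLCs 84.7, 56.6 and 52.9 CPM. EpiLC samples lay below all ESC and D2PGCLC samples, and the D6PGCLC samples were the highest of all. In none of the 4 steps did *Notch1* pass the fold cutoff, although the differences of -0.50 ± 0.16 into EpiLCs, 0.69 ± 0.16 into D2PGCLCs and 0.81 ± 0.15 from D4 to D6 had adjusted p values of 0.0114, 0.00107 and 0.0023. The last was 0.57 without D6PGCLC replicate 1. D6PGCLCs were 1.10 ± 0.16 above EpiLCs on the log2 scale (adjusted p = 6.99e-06), and 0.87, under the cutoff, without D6PGCLC replicate 1, which held the highest value. The antisense genes *0610009E02Rik* and *Gm13568*, which share 1068 and 414 exon bases with *Notch1*, had 0 to 24 and 0 to 1 counts per library.

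*Notch2* (ENSMUSG00000027878, chr3:98013527-98150361, plus strand) encodes a receptor of the same structure. It had 32.6, 34.7 and 37.9 CPM in ESCs and 86.5, 69.1 and 72.4 CPM in EpiLCs. D2PGCLCs had 83.3, 63.1 and 71.3 CPM, D4PGCLCs 61.6, 54.9 and 42.0 CPM and D6PGCLCs 65.0, 52.6 and 57.5 CPM. The ESC samples lay below all 12 others, and the EpiLC and D2PGCLC samples overlapped. *Notch2* rose by 1.11 ± 0.14 on the log2 scale into EpiLCs (adjusted p = 1.36e-06), and its difference between D2PGCLCs and EpiLCs was -0.0661 ± 0.13 (adjusted p = 0.704). *Gm42820*, which shares 541 exon bases with *Notch2* on the same strand, had 1 to 11 counts per library.

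*Notch3* (ENSMUSG00000038146, chr17:32120820-32166852, minus strand) encodes the receptor best known from vascular smooth muscle. It had 26.6, 20.1 and 22.2 CPM in ESCs, 128.1, 114.4 and 117.4 CPM in EpiLCs and 25.6, 21.03 and 22.2 CPM in D2PGCLCs. D4PGCLCs had 29.7, 28.7 and 28.1 CPM, and D6PGCLCs 48.4, 40.1 and 50.9 CPM. The EpiLC samples stood apart from all others, the ESC and D2PGCLC samples overlapped, and the D6PGCLC samples exceeded those of both earlier PGCLC days. *Notch3* rose by 2.38 ± 0.12 on the log2 scale into EpiLCs (adjusted p = 5.01e-12) and fell by 2.39 ± 0.12 in D2PGCLCs (adjusted p = 7.57e-12). It was then 1.02 ± 0.11 higher on day 6 than on day 2 (adjusted p = 1.95e-06), and 0.94 to 0.99, under the cutoff, without D2PGCLC replicate 2 or 3 or D6PGCLC replicate 1 or 3 in turn. Against ESCs the day 6 difference was also 1.02 ± 0.11 (adjusted p = 4.43e-07), and it was 0.93 without ESC replicate 2 and 0.96 without D6PGCLC replicate 3. The antisense gene *Gm17276* had 0 to 8 counts per library.

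*Lfng* (ENSMUSG00000029570, chr5:140607320-140615545, plus strand) encodes lunatic fringe, the glycosyltransferase that modifies the receptors. It had 0.328, 0.482 and 0.637 CPM in ESCs, from 9, 11 and 19 counts, and 8.65, 4.74 and 4.48 CPM in EpiLCs. D2PGCLCs had 8.18, 9.28 and 6.84 CPM, D4PGCLCs 4.24, 7.20 and 3.27 CPM, and D6PGCLCs 1.31, 3.70 and 1.73 CPM. All 12 later samples exceeded the ESC samples, and neighbouring days overlapped. *Lfng* rose by 3.60 ± 0.44 on the log2 scale into EpiLCs (adjusted p = 1.58e-06), and the difference between D2PGCLCs and EpiLCs was 0.45 ± 0.35 (adjusted p = 0.299). From day 4 to day 6 the difference was -1.11 ± 0.36 (adjusted p = 0.0503), or -0.84 without D6PGCLC replicate 1, and from day 2 to day 6 it fell by 1.83 ± 0.36 (adjusted p = 0.000645), and by 1.56 without D6PGCLC replicate 1. It therefore left the EpiLC level later than *Dll1*, *Dll3* and *Notch3* in these samples, although that difference in timing between genes was not tested.

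*Hes1* (ENSMUSG00000022528, chr16:30064384-30067796, plus strand) and *Hey1* (ENSMUSG00000040289, chr3:8663359-8667256, minus strand) encode basic helix-loop-helix repressors that are classic targets of the pathway, and *Hes1* also answers to other signals. *Hes1* had 32.3, 32.7 and 31.0 CPM in ESCs, 26.7, 19.3 and 20.4 CPM in EpiLCs and 12.8, 8.67 and 12.9 CPM in D2PGCLCs. D4PGCLCs had 16.8, 18.5 and 21.1 CPM and D6PGCLCs 22.2, 18.2 and 13.8 CPM. It was thus highest in ESCs and lowest in D2PGCLCs, with no overlap of either group with any other. *Hes1* fell by 1.48 ± 0.18 on the log2 scale between ESCs and D2PGCLCs (adjusted p = 1.33e-06). The 2 steps on the way, -0.53 ± 0.17 and -0.94 ± 0.18, had adjusted p values of 0.0145 and 0.000196 but were under the fold cutoff, as was the difference of 0.71 ± 0.18 from day 2 to day 4 (adjusted p = 0.0143).

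*Hey1* had 2.04, 2.98 and 2.45 CPM in ESCs, 4.82, 3.68 and 3.12 CPM in EpiLCs and 8.92, 13.3 and 5.79 CPM in D2PGCLCs. D4PGCLCs had 13.3, 15.8 and 14.7 CPM and D6PGCLCs 15.3, 7.02 and 9.18 CPM. All 9 PGCLC samples exceeded all 6 ESC and EpiLC samples. *Hey1* rose by 1.26 ± 0.29 on the log2 scale from EpiLCs to D2PGCLCs (adjusted p = 0.00125), and this was 0.93, under the cutoff, without D2PGCLC replicate 2. In D6PGCLCs it was 2.08 ± 0.30 above ESCs (adjusted p = 1.27e-05) and 1.44 ± 0.29 above EpiLCs (adjusted p = 0.000327), or 1.72 and 1.07 without D6PGCLC replicate 1. The target genes *Hes1* and *Hey1* therefore went opposite ways between ESCs and D2PGCLCs, since *Hey1* was 1.91 ± 0.30 higher there (adjusted p = 3.79e-05).

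Across the steps, the plot of log2 fold changes shows that most of the movement lay at the entry to and the exit from the EpiLC state. From ESCs to EpiLCs 5 of the 10 genes were called, *Dll1*, *Dll3*, *Notch2*, *Notch3* and *Lfng*, all of them higher, against 26.2% of all genes tested called in either direction and 14.4% called higher. From EpiLCs to D2PGCLCs 6 were called, with *Hey1* higher and *Dll1*, *Dll3*, *Jag1*, *Jag2* and *Notch3* lower, against 25.4% of all genes called, 11.0% higher and 14.4% lower. All 4 ligand genes were among those that fell. Both later steps had 1 call each. It was *Jag2* from D2 to D4, against 2.94% of all genes called and 2.56% called higher, and *Dll1* from D4 to D6, against 3.08% called and 2.29% called higher. With no fold cutoff, an adjusted p under 0.05 was reached by 9, 8, 3 and 5 of the 10 genes over the 4 steps, against 52.5%, 53.2%, 11.9% and 12.8% of all genes. The median log2 fold change of the 10 genes was 0.88, -1.24, 0.12 and 0.39 over the 4 steps, while that of all tested genes lay between -0.0127 and 0.0183. The first and second steps share the EpiLC samples, so a high EpiLC value enters both.

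**Figure D2:**
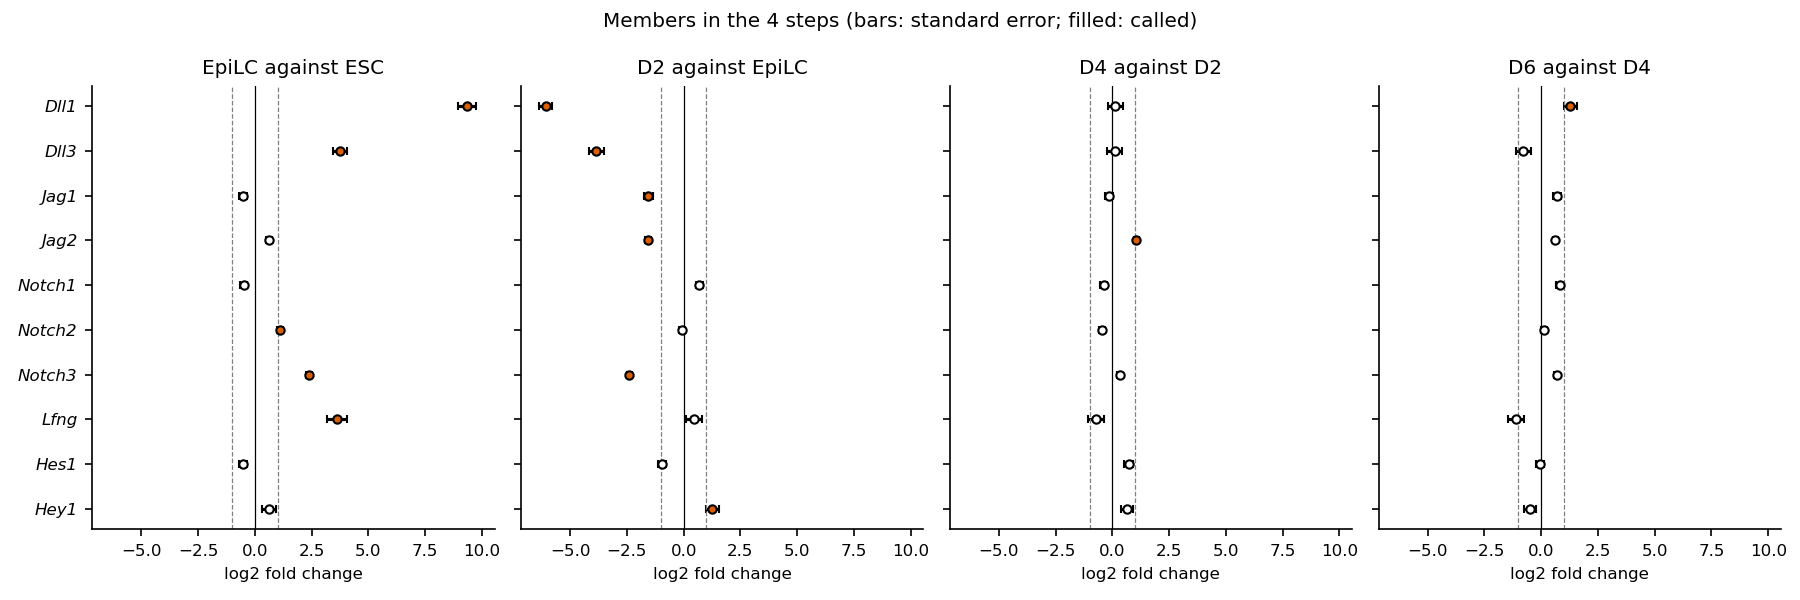
Log2 fold change (x axis) of the 10 genes (y axis) in each of the 4 steps, with bars of 1 SE, filled points for called genes and dashed lines at -1 and 1. *Dll1* extends from 9.35 in the first step to -6.07 in the second, and 8 of the 10 genes lie between the dashed lines in the last.

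Between D6PGCLCs and ESCs 5 of the 10 genes were called (26.2% of all genes, 15.8% higher and 10.3% lower), with *Dll1*, *Notch3*, *Lfng* and *Hey1* higher and *Jag1* lower. Between D6PGCLCs and EpiLCs 6 were called (27.9% of all genes, 15.9% higher and 12.0% lower), with *Notch1* and *Hey1* higher and *Dll1*, *Dll3*, *Notch3* and *Lfng* lower. Without D6PGCLC replicate 1 these counts were 6 and 5. With no fold cutoff they were 9 against 53.7% of all genes and 8 against 57.4%. Between D2PGCLCs and ESCs 6 were called (24.3% of all genes, 11.7% higher and 12.7% lower), *Dll1*, *Notch2*, *Lfng* and *Hey1* higher and *Jag1* and *Hes1* lower. The *Notch2* difference of 1.05 was 0.94, under the cutoff, without D2PGCLC replicate 1, and the *Jag2* difference of -0.97 passed it at -1.06, -1.02 and -1.06 without ESC replicate 2 and D2PGCLC replicates 1 and 2 in turn. From day 2 to day 6 of induction 4 were called (13.6% of all genes, 10.9% higher and 2.75% lower), *Dll1*, *Jag2* and *Notch3* higher and *Lfng* lower.

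The order of levels differed from gene to gene. For *Dll1* the order was EpiLC, D6PGCLC, D4PGCLC, D2PGCLC and ESC, and only the D4 and D2 neighbours did not differ (adjusted p = 0.862). For *Dll3* and *Notch2* a single boundary separated neighbours, below EpiLCs for *Dll3* and above ESCs for *Notch2* (adjusted p = 1.26e-08 and 0.00128). Without D6PGCLC replicate 1 the *Notch2* levels of D2PGCLCs and D6PGCLCs differed as well (adjusted p = 0.0473, against 0.0689 with it). For *Notch1*, from D6PGCLC through D2PGCLC, ESC and D4PGCLC to EpiLC, only the first pair of neighbours differed (0.42 on the log2 scale, adjusted p = 0.0394), and without D6PGCLC replicate 1 that pair did not either (0.18, adjusted p = 0.323). For *Hey1* only the neighbours D2PGCLC and EpiLC differed (adjusted p = 0.00125). *Jag1* differed between all neighbours except D2PGCLCs and D4PGCLCs (adjusted p = 0.689). *Jag2* had D6PGCLCs beside EpiLCs (adjusted p = 0.536) and D4PGCLCs beside ESCs (adjusted p = 0.594), with D2PGCLCs below. In *Notch3* the neighbours D4PGCLC and D2PGCLC (adjusted p = 0.0652) and D2PGCLC and ESC (adjusted p = 0.998) did not differ. In *Lfng* only the neighbours D6PGCLC and ESC differed (adjusted p = 0.000416), although D6PGCLCs were also below D2PGCLCs and EpiLCs (adjusted p = 0.000645 and 0.00305). *Hes1* had ESCs apart at the top and D2PGCLCs at the bottom (adjusted p = 0.0145 and 0.00722). These adjusted p values carry no fold cutoff.

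Counts per kilobase of exon allowed the ligand genes to be compared with each other, with *Dll4*, the remaining activating Delta-like ligand, included. *Dll3* was counted among them although its product is not an activating ligand, so the sum is not one of activating ligands alone. The summed level of these ligand genes was 7.48 ± 0.513 CPM per kb (SD, n = 3) in ESCs and 34.0 ± 6.12 in EpiLCs. On days 2, 4 and 6 of induction it was 3.40 ± 0.530, 5.25 ± 0.651 and 7.89 ± 0.205 CPM per kb. In ESCs this was nearly all Jagged, with shares of 46.8% ± 5.33 for *Jag1* and 45.0% ± 2.90 for *Jag2*. In EpiLCs *Dll1* made up 53.1% ± 2.30 and *Dll3* 22.9% ± 4.72. In PGCLCs *Jag2* was the leading ligand transcript, with 50.7% ± 1.24, 68.4% ± 0.628 and 70.3% ± 2.50 on days 2, 4 and 6, while *Jag1* held 24.7% ± 3.63, 14.4% ± 1.25 and 15.6% ± 3.53. D6PGCLCs and ESCs thus had similar sums of ligand transcript with a different makeup, since *Jag2* held 68.2% to 73.05% in the 3 D6PGCLC samples and 41.8% to 47.4% in the 3 ESC samples. With 3 samples against 3, an exact permutation test of such a share cannot reach 0.05, and none was made.

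The receptors, with *Notch4* included, summed to 11.9 ± 0.733 CPM per kb in ESCs and 24.7 ± 1.61 in EpiLCs, and to 17.7 ± 1.82, 17.6 ± 3.24 and 20.0 ± 1.66 on the PGCLC days. In ESCs the 4 receptor genes held near-equal shares, from 23.7% ± 2.14 for *Notch3* to 27.4% ± 2.82 for *Notch2*. In EpiLCs *Notch3* held 60.1% ± 0.472 and *Notch4* 2.79% ± 0.557. In D4PGCLCs *Notch4* was the leading receptor transcript with 36.5% ± 5.95, and in D6PGCLCs the shares again ran close, from 21.5% ± 7.00 for *Notch4* to 28.9% ± 4.49 for *Notch3*. Exon length was taken over all annotated exons of a gene, and without the division by length 26 of 45 shares moved by more than 1 SD. The order of the receptors, and of some ligands, depends on the division. Without it the ESC receptor shares ran from 18.5% for *Notch4* to 34.55% for *Notch1*. In D4PGCLCs *Notch2* then held 30.9% and *Notch4* 30.3%, and in D6PGCLCs *Notch1* led with 31.4% against 17.1% for *Notch4*. *Notch3* led in EpiLCs either way, with 51.8% without the division. Among the ligands, *Jag2* held 51.4% and *Jag1* 44.7% in ESCs without the division. In EpiLCs *Jag2* then held 24.35% and *Dll3* 14.7%. *Dll1* led the ligands in EpiLCs and *Jag2* in PGCLCs either way.

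**Figure D3:**
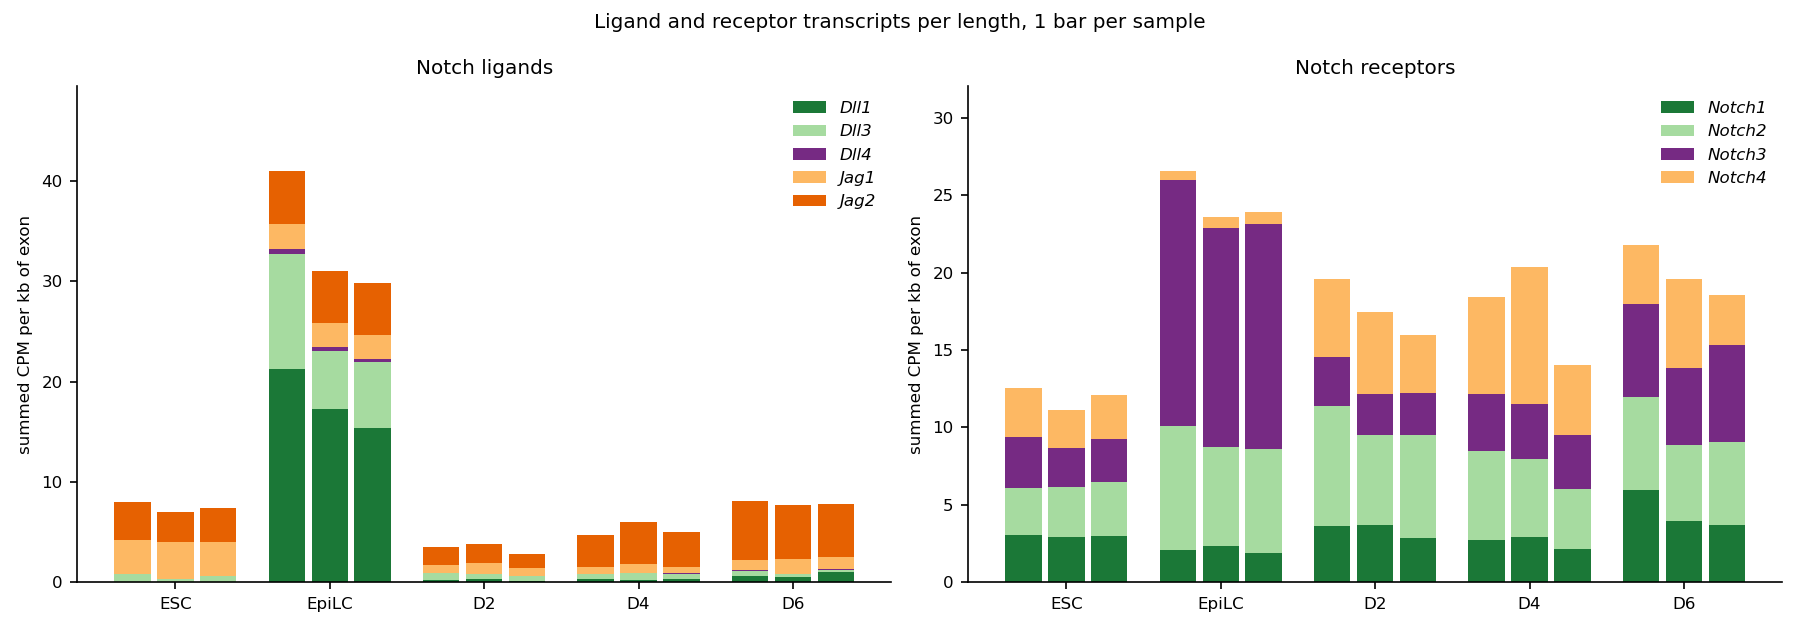
Summed CPM per kb of exon (y axis) of 5 ligand genes (left) and 4 receptor genes (right), with 1 stacked bar per sample and 3 samples per group (x axis). EpiLC bars are the highest in both panels and are led by *Dll1* and *Notch3*, and *Jag2* leads the ligands in all 9 PGCLC bars.

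A further 44 genes of the pathway were listed by role, of which 41 passed the filter on low counts and *Dlk2*, *Hes2* and *Heyl* did not. From ESCs to EpiLCs 9 of the 41 were called, 5 higher and 4 lower, against 26.2% of all genes called, 14.4% higher and 11.9% lower. From EpiLCs to D2PGCLCs 13 of the 41 were called, 6 higher and 7 lower, against 25.4% of all genes, 11.0% higher and 14.4% lower. In each later step 1 was called, against 2.94% and 3.08% of all genes. By role, 3 of 4 genes of ligand endocytosis were called higher from EpiLCs to D2PGCLCs, *Neurl1a* by 1.59, *Mib2* by 1.22 and *Neurl1b* by 1.02 on the log2 scale. The other, *Mib1*, went down, from 116.6, 130.6 and 121.1 CPM to 93.4, 92.95 and 81.3 CPM. It was not called, although all 4 genes had an adjusted p under 0.05. Of 10 protease genes 1 was called in each of the first 2 steps and none later, *Furin* at -1.25 and *Psen2* at 1.10. The others called were the modulator genes *Nrarp* (-1.97) and *Dtx1* (-1.20) into EpiLCs, and *Dtx1* (-2.15), the coactivator gene *Maml2* (-2.82) and the target gene *Hes5* (2.51) into D2PGCLCs. These genes fell outside the rule for naming in that step and are named after their values were seen. Of them *Hes5* was scarce, with 5, 0 and 1 counts in EpiLCs and 13, 11 and 17 in D2PGCLCs.

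Several of these genes had their highest level in EpiLCs, as *Dll1* did. *Dll4* had 47, 50 and 31 counts in EpiLCs against 0, 1 and 0 in ESCs and 5, 0 and 0 in D2PGCLCs. The ratio of summed normalised counts was 122.3 (exact 95% interval 21.6 to 4868) to ESCs and 28.7 (12.0 to 89.8) to D2PGCLCs. *Hes6*, whose product counters HES1, had 113.5, 86.7 and 87.3 CPM in EpiLCs and 12.3, 13.3 and 13.0 CPM in ESCs. It rose by 2.90 ± 0.14 on the log2 scale into EpiLCs (adjusted p = 3.27e-12) and fell by 4.05 ± 0.15 in D2PGCLCs (adjusted p = 1.73e-13), where it had 5.88, 6.67 and 4.83 CPM. *Mfng*, the manic fringe gene, had 7.73, 8.09 and 9.54 CPM in EpiLCs and 0.521, 1.79 and 0.210 CPM in D2PGCLCs, a fall by 3.36 ± 0.51 (adjusted p = 1.94e-05). These 3 genes showed no overlap between EpiLCs and either neighbouring group.

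*Notch4* ran the other way. It had 25.6, 19.9 and 23.3 CPM in ESCs, 4.67, 5.56 and 6.31 CPM in EpiLCs and 40.6, 43.1 and 29.9 CPM in D2PGCLCs. It fell by 2.06 ± 0.25 on the log2 scale into EpiLCs (adjusted p = 1.08e-06) and rose by 2.78 ± 0.25 in D2PGCLCs (adjusted p = 2.37e-08), opposite to *Notch3* in both steps. *Notch4* is best known from endothelium. Of 4 endothelial markers, *Pecam1*, which pluripotent and germ cells also express, carried nearly all of the list's summed CPM, which ran from 117.6 to 129.4 (ESCs), 168.4 to 194.3 (EpiLCs) and 354.1 to 452.3 (PGCLCs). *Cdh5* had no count in any ESC library and 0 to 49 counts elsewhere. Its mean was highest in D2PGCLCs, at 0.924 CPM, against 0.172 in EpiLCs, 0.417 in D4PGCLCs and 0.0881 in D6PGCLCs. *Kdr* had means of 1.65 CPM in ESCs, 1.48 in EpiLCs and 0.927 to 1.075 in the PGCLC groups. *Tie1* was highest in EpiLCs, with 1.05 CPM against 0.0627 in ESCs and 0.522 in D2PGCLCs. The part of other cells in the *Notch4* values was not tested.

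*Dtx4*, a Deltex ubiquitin ligase gene, rose into EpiLCs, as *Lfng* did, and its D6PGCLC level did not differ detectably from EpiLCs (-0.18 ± 0.31 on the log2 scale, adjusted p = 0.643), whereas *Lfng* fell by 1.39 ± 0.36 between these groups (adjusted p = 0.00305; by 1.11 without D6PGCLC replicate 1). *Dtx4* had 0.584, 0.263 and 0.704 CPM in ESCs, 9.22, 5.82 and 7.63 CPM in EpiLCs and 4.82 to 11.5 CPM in the 9 PGCLC samples, with a rise of 3.82 ± 0.41 on the log2 scale into EpiLCs (adjusted p = 2.37e-07). *Neurl1b*, which encodes an E3 ligase for ligand endocytosis, rose with the days. It had 1.81, 1.11 and 1.14 CPM on day 2, 3.37, 3.34 and 3.18 CPM on day 4 and 4.84, 6.23 and 6.26 CPM on day 6, and its rise from day 2 to day 4 was 1.28 ± 0.32 (adjusted p = 0.0137). *Maml3*, a coactivator gene of the RBPJ complex, had 0.485, 0.271 and 0.544 CPM on day 4 and 1.73, 1.50 and 1.93 CPM on day 6, a rise of 1.98 ± 0.46 (adjusted p = 0.00885). Neither gene overlapped between the days compared.

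The 3 remaining genes were scarce. *Hes3*, of the Hes repressor family, had 40, 29 and 15 counts in EpiLCs and 0, 1 and 2 in ESCs, with a ratio of summed normalised counts of 26.8 (exact 95% interval 8.85 to 132.3). *Hes7*, an oscillating gene of the segmentation clock, had 7, 4 and 13 counts in EpiLCs and 0, 0 and 1 in D2PGCLCs, with a ratio of 26.9 (exact 95% interval 4.38 to 1106). Its 0, 0 and 11 counts in ESCs and 0, 8 and 11 in D6PGCLCs overlapped those of EpiLCs. *Dlk1*, a Delta-like relative without the receptor-binding domain, had 2.10, 0.822 and 0.514 CPM in EpiLCs and 0.184, 0.215 and 0.0600 CPM in D2PGCLCs. This was a fall by 2.89 ± 0.64 on the log2 scale (adjusted p = 0.000885). *Dlk1* did not stay low, with 1.997, 0.661 and 1.247 CPM in D6PGCLCs, which overlapped the EpiLC values. It was called higher in D6PGCLCs than in D2PGCLCs.

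**Figure D4:**
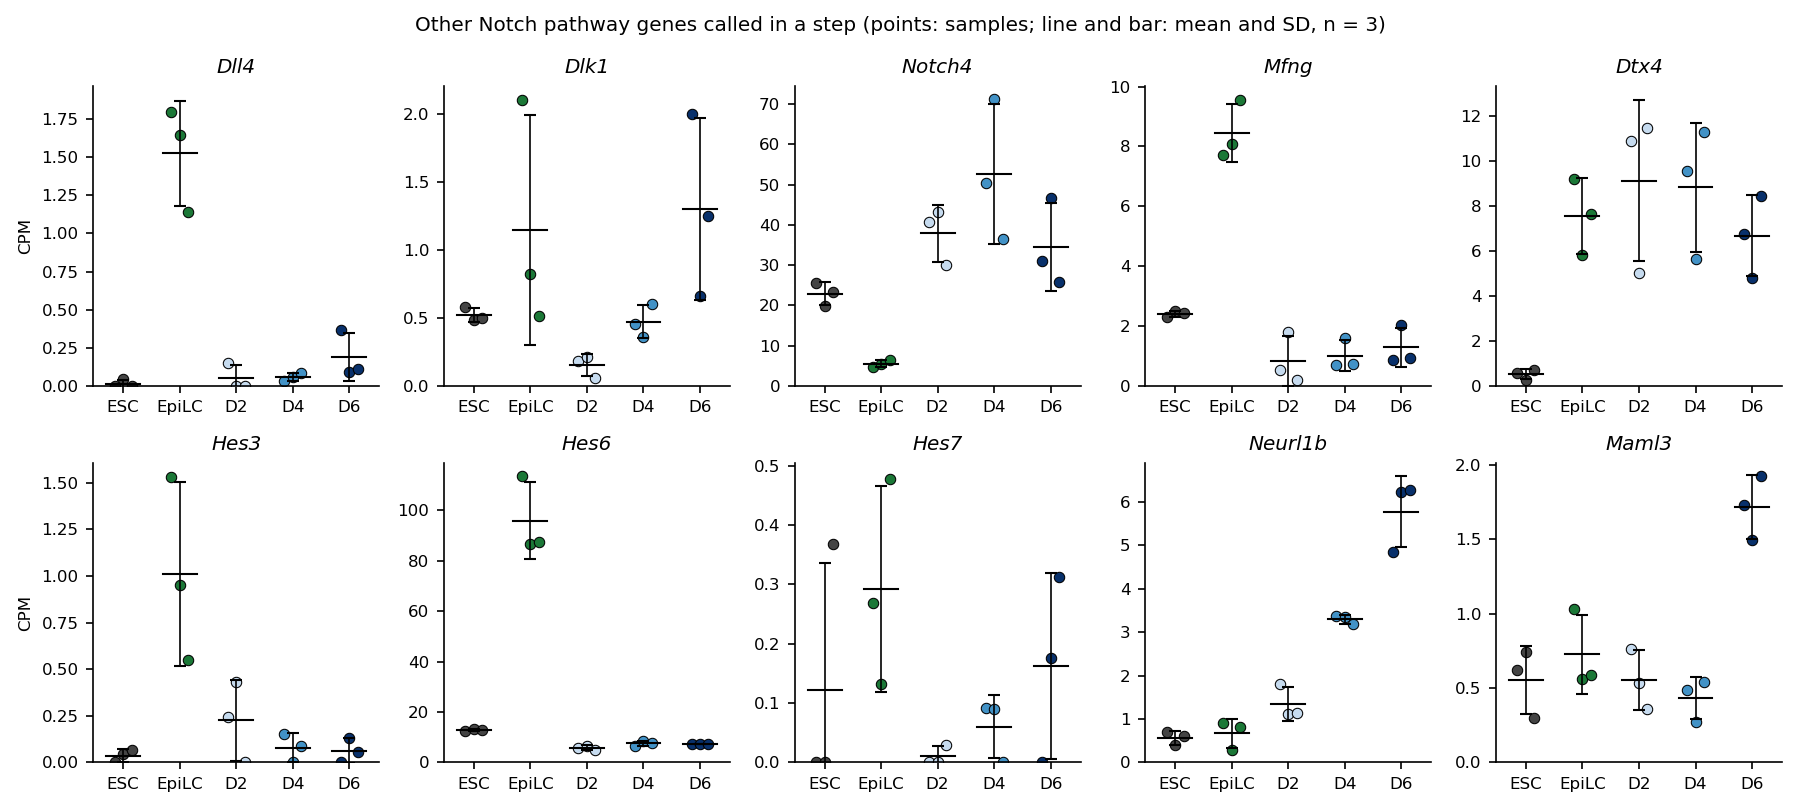
CPM (linear axis from 0, scaled separately in each panel) of the 10 further pathway genes named by the rule, with 1 point per sample and the mean and SD of 3 samples per group. *Dll4*, *Hes3*, *Hes6* and *Mfng* peak in EpiLCs, *Notch4* has its lowest level there at 4.67 to 6.31 CPM, and *Neurl1b* and *Maml3* are highest in D6PGCLCs.

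Some of the markers of other cells moved with the groups. The summed CPM of 6 neural markers was 20.7 to 24.1 in EpiLCs and 5.81 to 14.7 elsewhere, that of 6 mesoderm markers 15.5 to 17.9 in ESCs and 0.485 to 2.35 elsewhere, and that of 5 endoderm markers 9.09 to 16.9 in D6PGCLCs and 0.690 to 6.36 elsewhere. Few genes carried most of each of these sums. Among the neural markers *Neurod1* and *Map2* had means of 8.66 and 8.95 CPM in EpiLCs, whereas *Pax6* was highest in D4PGCLCs (8.71 CPM, against 3.01 in EpiLCs) and *Sox1* in ESCs (1.81 CPM). Nearly all of the mesoderm sum in ESCs was *T*, with 14.8 CPM against 0.247 in EpiLCs. The segmentation genes *Tbx6*, *Mesp2* and *Msgn1* had means under 1 CPM in every group. *Mesp2* had 0.736 CPM in EpiLCs, 0.639 in D6PGCLCs and 0.186 in ESCs. *Tbx6* and *Mixl1* were lower in EpiLCs (0.271 and 0.575 CPM) than in ESCs (0.552 and 1.09 CPM). Of the endoderm markers, *Gata6* had 14.1, 5.66 and 7.99 CPM in D6PGCLCs, while *Foxa2* and *Afp* were near 0 there. *Gata4* and *Sox17* also rose over induction. Their means on days 2, 4 and 6 were 0.498, 0.967 and 1.94 CPM for *Gata4* and 0.193, 0.702 and 1.28 CPM for *Sox17*. In ESCs they were 4.35 CPM for *Gata4* and 1.07 CPM for *Sox17*. The part of neural cells in the EpiLC values and of endoderm in the D6PGCLC values was not tested.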

How the data were processed

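RNA was purified with TRIzol and made into libraries with a directional kit. The authors aligned reads to mm10 and deposited raw counts for 55536 ENSEMBL genes in 15 samples. The submitters' processing notes name Trim Galore, FastQC and STAR. The counting tool, annotation release and use of strand are not given in the sources used here. Symbols, coordinates and exon lengths came from GENCODE M21, in which all 55536 identifiers matched.

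Samples were grouped by their labels. All 10 pairs of the 5 groups were tested with edgeR 4.0.16 in R 4.3.3 (TMM, filterByExpr with its minimum of 10 counts, quasi-likelihood fit of all 15 samples) and tested on simulated data first. DESeq2 (version 1.42.0 here), the study's tool, its size factors in edgeR, no filter, no fold cutoff, only the 2 groups compared, a replicate block and each replicate left out were alternatives. Replicates of a group differed by more than counting error (chi-square per gene 8.82 to 44.6).

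The 10 genes, the other lists and the tests were chosen with earlier results of these data known. Of 44 further pathway genes, up to 5 with the largest called changes per step were named. The 3 protein-coding genes most like *Dll1*, *Notch1* and *Hes1* were ranked by Pearson correlation of log2(CPM + 1), at a mean of at least 5 CPM.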

Additional observations from a re-analysis of the deposited data

How the results depend on the processing

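Single samples in these groups of 3 were not tested as outliers, and low counts limit *Dll1* in ESCs, *Dll4*, *Hes3*, *Hes5* and *Hes7*. The cause of the shifts below was not tested, except that dropping the fold cutoff by its construction admits smaller changes. Without that cutoff the 10 genes gave 9 calls from ESCs to EpiLCs (5 with it), 3 from D2 to D4 (1), 5 from D4 to D6 (1) and 9 between D6PGCLCs and ESCs (5). Of the 41 further pathway genes tested, 22 (9), 26 (13), 3 (1) and 7 (1) were then called over the 4 steps. Between D6PGCLCs and ESCs it was 21 (8), and between D6PGCLCs and EpiLCs 25 (13). Of all genes tested, 52.5% (26.2%), 53.2% (25.4%), 11.9% (2.94%) and 12.8% (3.08%) were called over the 4 steps. For D6PGCLCs against ESCs and EpiLCs these shares were 53.7% (26.2%) and 57.4% (27.9%). From D4 to D6 the 10 genes had 2 calls, with *Lfng* added, under DESeq2, without the filter on low counts and with a replicate block.

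Leaving out each replicate in turn gave 5 to 5 member calls from ESCs to EpiLCs, 5 to 7 into D2PGCLCs, 0 to 1 from D2 to D4 and 0 to 2 from D4 to D6. Between D6PGCLCs and ESCs it gave 4 to 6 and between D6PGCLCs and EpiLCs 5 to 7. The further genes had 9 to 12, 10 to 12, 0 to 1 and 1 to 2 calls over the steps, and 5 to 11 and 11 to 13 for D6PGCLCs against ESCs and EpiLCs, where the count of 5 arose without ESC replicate 1. The *Neurl1b* call from D2 to D4 was lost without D2PGCLC replicate 2 or 3.

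Replicate numbers come from the labels, which do not say whether equal numbers pair samples, and the main fit did not pair them. Deviations from the group mean correlated at 0.0703 on average between samples of equal number (30 pairs, -0.184 to 0.358) and at -0.0352 between others (60 pairs). With 3 samples per group these correlations cannot exclude a pairing. With the replicate block, *Lfng* was called from D4 to D6 (-1.12, adjusted p = 0.0292 by edgeR) and *Jag1* between D6PGCLCs and EpiLCs (-1.01, adjusted p = 1.38e-05), and no other call of the 10 genes changed. *Jag1* was also called in that pair under DESeq2 and with its size factors (both -1.03), with only the 2 groups fitted (-1.01) and without D6PGCLC replicate 2 (-1.15). *Lfng* was also called from D4 to D6 without D4PGCLC replicate 3 (-1.34) or D6PGCLC replicate 2 (-1.69), and *Hes1* from EpiLCs to D2PGCLCs (-1.03 each) without EpiLC replicate 2 or D2PGCLC replicate 1 or 3.

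Differences that changed sign were all near 0 and uncalled. *Dll3* between D4PGCLCs and ESCs was -0.0153 under DESeq2 and -0.0200 with its size factors, and *Notch3* between D2PGCLCs and ESCs was 0.00813 without the filter and 0.00235 with the replicate block. With a replicate left out, the range was -0.17 to 0.44 for *Dll1* from D2 to D4, -0.0518 to 0.26 for *Dll3* in that step, and -0.30 to 0.0380 for *Jag1*. It was -0.35 to 0.21 for *Dll3* between D2PGCLCs and ESCs, -0.24 to 0.32 between D4PGCLCs and ESCs, and -0.0162 to 0.18 for *Jag2* in the latter pair. *Notch2* ranged from -0.17 to 0.0412 between D2PGCLCs and EpiLCs and from -0.00240 to 0.26 from D4 to D6, and *Notch3* from -0.0846 to 0.12 between D2PGCLCs and ESCs. *Lfng* ranged from -0.66 to 0.0936 between D4PGCLCs and EpiLCs, *Hes1* from -0.23 to 0.0981 from D4 to D6, and *Hey1* from -0.20 to 0.50 between D6PGCLCs and D2PGCLCs.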

Other observations

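Among 10227 protein-coding genes with a mean of at least 5 CPM, the patterns most like *Dll1* over the 15 samples were those of *Ccno*, a cyclin-like gene of multiciliated cells (Pearson r = 0.991), *Ccdc136* (0.989) and *Tcfl5* (0.987). For *Notch1* they were *Csgalnact2*, an enzyme gene of chondroitin sulfate synthesis (0.917), *Sema5a*, a semaphorin gene (0.890), and *Marf1*, an oocyte meiosis regulator gene (0.875). For *Hes1* they were *Endog*, which encodes a mitochondrial endonuclease (0.952), *Slc12a8* (0.920) and *Rab28* (0.919). These coefficients describe 15 points in 5 groups that share their libraries, so a peak in a single group is enough to bring them near 1.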
